A study of Homo sapiens with 8 samples.

Results

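The regions around GPC1, SLC7A14, PPP1CB and SPDYA were examined for acetylation of lysine 27 on histone H3 (H3K27ac) in A549 cells after control siRNA or NRF2 siRNA. These 4 genes lie in 3 loci, since PPP1CB and SPDYA overlap on chromosome 2. Peaks of all 6 libraries were merged where they overlapped by at least 1 bp, and every merged region that touched a gene body or the 100 kb on either side of it was kept. This gave 22 of 49186 merged regions, with 4 in the GPC1 locus, 6 in the SLC7A14 locus and 12 in the PPP1CB-SPDYA locus. The loci were chosen by a measured value: they hold the regions of the largest, the third largest and the fifth largest falls. Of 32673 regions tested, the ranking took those with an adjusted p under 0.05 by limma that were lower in all 3 pairs of same-numbered libraries. The 3 regions of largest fall are therefore described without a test. The other 19 regions, called neighbours here, were not used in the choice.

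A549 is a human lung adenocarcinoma line that carries a KEAP1 mutation and accumulates NRF2, and both groups share this background. The 3 control siRNA libraries and the 3 NRF2 siRNA libraries were made 48 h after transfection with an H3K27ac antibody. NRF2 siRNA 28 was used in replicate 1 and NRF2 siRNA 30 in replicates 2 and 3. The study describes the replicates as biological and from independent experiments. The files hold no measure of NRF2 itself by which to check the knockdown.

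H3K27ac is deposited by the acetyltransferases CBP and p300 and is found on nucleosomes at active promoters and active enhancers. NRF2 pairs with a small MAF protein on antioxidant response elements (AREs), whose core resembles the site bound by AP-1 factors, and recruits these acetyltransferases. KEAP1 normally directs NRF2 to degradation, and cells with a defective KEAP1 keep high NRF2 activity.

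The sequence around the centre of each region of largest fall is shown first, because an AP-1 site that ends in GC was found there in all 3. This spelling was picked from the matches after a first search, so its presence in all 3 comes with that choice. Of equally long windows centred on merged regions, 26.0%, 13.1% and 16.4% held it (order GPC1, SLC7A14, PPP1CB). The runs are 100 bases of GRCh37, 5′ to 3′ on the strand of that site, and capitals mark TGANTCAGC, the ARE core TGACNNNGC and the AP-1 site TGANTCA.
GPC1 upstream region, chr2:241327152-241327251, minus strand: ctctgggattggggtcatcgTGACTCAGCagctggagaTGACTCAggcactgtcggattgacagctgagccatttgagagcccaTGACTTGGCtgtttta
SLC7A14 intronic region, chr3:170224450-170224549, minus strand: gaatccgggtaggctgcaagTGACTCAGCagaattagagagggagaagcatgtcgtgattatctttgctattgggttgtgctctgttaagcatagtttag
PPP1CB end region, chr2:29026125-29026224, plus strand: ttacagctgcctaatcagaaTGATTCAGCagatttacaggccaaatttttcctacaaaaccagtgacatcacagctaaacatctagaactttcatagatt
In the GPC1 and SLC7A14 runs the first capitals spell TGACTCAGC, which matches the ARE core and the AP-1 site at once. In the PPP1CB run they spell TGATTCAGC, which matches the AP-1 site but not the ARE core as written. The GPC1 run also holds a separate AP-1 site and the ARE core TGACTTGGC.

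Acetylation was compared through ranks. For each library, a region's percentile is the share of that library's peaks with a lower fold enrichment than the region's highest peak (ties at their middle rank), so 97 means near the top of the list and 5 near the bottom, and "not called" means that the library had no peak there. For tests, the 32673 regions called in at least 3 libraries were ranked within each library and the ranks turned into normal scores, and changes below are in these score units (NRF2 siRNA minus control siRNA). The lists held 27941, 34747 and 41571 peaks in control siRNA replicates 1 to 3, and 23885, 34986 and 39108 peaks in NRF2 siRNA replicates 1 to 3. The lists give no read counts, and the study's account of its sequencing gives both replicate 1 libraries the fewest reads. A region not called in a library may lie just under its threshold. The peak names of replicate 1 lack an identifier that those of replicates 2 and 3 carry, and only replicate 1 used siRNA 28, so the siRNA, the lower depth and that technical difference cannot be told apart. Coding starts of 4 of 5 epithelial markers lay in regions called in all 6 libraries. Of 10 leukocyte, endothelial and fibroblast markers CD14 did, 7 lay in none, COL1A1 was called in 2 libraries, and PECAM1 had no annotated coding start to assess.

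In each of the 3 loci a single distal region with a high level in every control siRNA library was at or near the bottom of the lists, or not called, after NRF2 siRNA. The promoter regions of GPC1 and PPP1CB, in contrast, were called in all 6 libraries, with groups that overlapped. Of the 19 neighbours, 11 were called in enough libraries to be tested, and limma with Benjamini-Hochberg adjustment over all 32673 regions called 0 of 11 lower and 0 higher. Over all regions tested the same fit called 3.39% lower and 2.01% higher. Control siRNA scores averaged -0.96 in an SLC7A14 intronic region and -1.25 in a noncoding RNA region of the PPP1CB-SPDYA locus. Regions not called scored -0.84, -1.63 and -2.01 in NRF2 siRNA replicates 1 to 3, so both neighbours had little room to fall. For them, the lack of a call as lower says little. At an unadjusted p under 0.05, 1 of the 11 neighbours was lower and 0 were higher, against 10.7% and 11.9% of all regions. With the replicate number as a block, again 0 neighbours were called in either direction, while the share of all regions called rose to 6.62% lower and 5.72% higher.

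**Figure D1:**
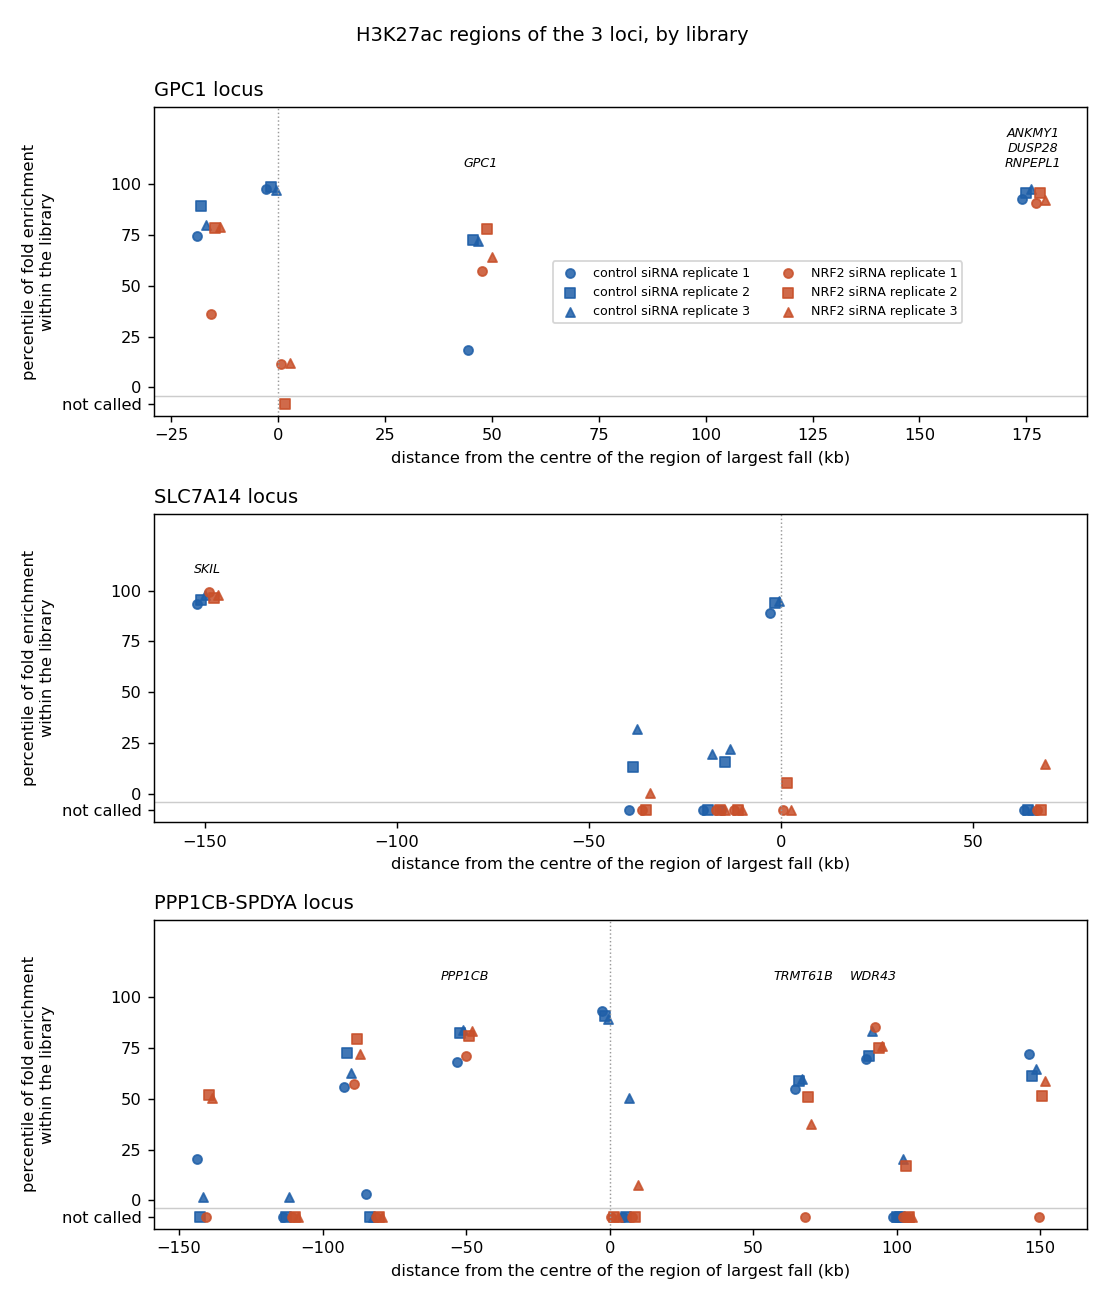
Percentile of fold enrichment within each library (vertical axis) against distance in kb from the centre of the region of largest fall (horizontal axis) for all 22 regions; blue symbols are control siRNA and red symbols NRF2 siRNA libraries, shapes give the replicate, libraries are set slightly apart, and names mark coding starts. At distance 0 all control siRNA libraries lie between 89.0 and 98.5, and the NRF2 siRNA libraries at 12.0 or below or among those not called.

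The GPC1 locus held the largest fall of the series. GPC1 encodes glypican 1, a heparan sulfate proteoglycan that is tethered to the cell surface and binds growth factors. The region that fell spans 6326 bp of intergenic sequence at chr2:241324161-241330486, 44594 bp before the GPC1 start. Its percentile was 97.6, 98.5 and 97.0 in control siRNA replicates 1 to 3, and 11.5, not called and 12.0 in NRF2 siRNA replicates 1 to 3. The groups lay far apart, and the region went from the top few percent of the lists to the lower part. In the authors' fold enrichment these were 12.0, 13.9 and 14.5 with control siRNA, and 3.06 and 2.59 in the NRF2 siRNA libraries that called it. The peaks that remained reached a −log10 q-value of 1.44 and 1.64, close to the lowest in their lists, against 32.3 to 60.1 with control siRNA. They covered 1171 and 1122 bp of the region, whereas peaks of the control siRNA libraries covered 3758 to 6326 bp. The score change was -3.01 (SE 0.365), and it was -2.16, -3.77 and -3.09 in pairs 1 to 3.

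Acetylation at the GPC1 promoter differed in direction between the pairs. The region over the GPC1 start (chr2:241372681-241376419, 42194 bp from the region of largest fall) had percentiles of 18.2, 72.7 and 71.8 with control siRNA and 57.3, 77.8 and 64.2 with NRF2 siRNA. Control siRNA replicate 1 stood far below the other 5 libraries, and the groups overlapped. The score change was 0.29 (SE 0.280, 95% interval -0.34 to 0.93; adjusted p = 0.590 by limma). The mean control siRNA score was 0.22, and regions not called scored -0.84, -1.63 and -2.01 in NRF2 siRNA replicates 1 to 3. A fall as large as that of the upstream region was therefore not possible here, and the interval is not set against it. The change was 0.89, 0.16 and -0.17 in pairs 1 to 3, 0.02 without control siRNA replicate 1, and -0.0012 when only pairs 2 and 3 were fitted. No other GPC1 start in the annotation lay in a merged region.

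On the far side of the distal region, 9969 bp away, an intergenic region of 6406 bp (chr2:241307786-241314191) had percentiles of 74.6, 89.0 and 80.1 with control siRNA and 35.9, 78.4 and 79.1 with NRF2 siRNA. It was lower in pairs 1 and 2 and level in pair 3, where the change was 0.02. The mean change was -0.35 (SE 0.243, 95% interval -0.89 to 0.20; adjusted p = 0.451 by limma), and -0.18 without NRF2 siRNA replicate 1. At the edge of the window, a region of 9807 bp holds the starts of ANKMY1, DUSP28 and RNPEPL1, which encode an ankyrin repeat protein, a dual specificity phosphatase and an aminopeptidase-like protein. It ranked high in every library, at 92.6, 95.7 and 97.7 with control siRNA and 90.9, 95.6 and 92.1 with NRF2 siRNA, and changed by -0.20 (SE 0.210; adjusted p = 0.625). All 3 neighbours of the GPC1 locus were called in all 6 libraries. None was called lower, but with 3.39% of all tested regions called lower, none among so few says little.

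**Figure D2:**
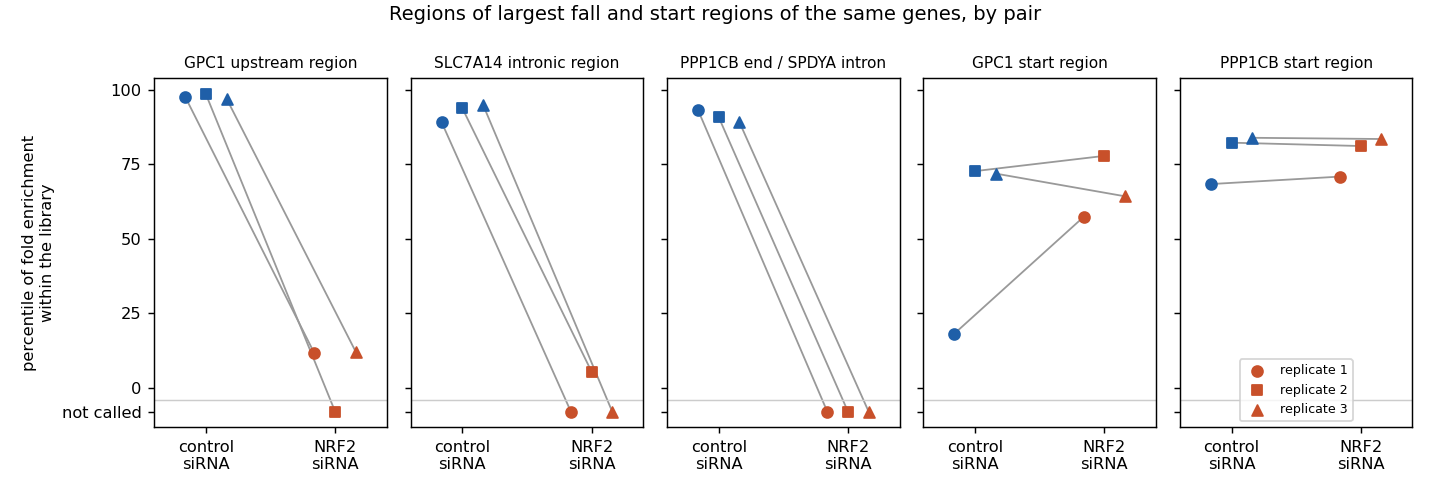
Percentile of fold enrichment within each library (vertical axis) for the 3 regions of largest fall and the start regions of GPC1 and PPP1CB, with lines joining control siRNA and NRF2 siRNA libraries of the same replicate number; points under the grey line were not called. All 9 lines of the regions of largest fall drop from 89.0 or above to 12.0 or below or to not called, while the lines of the start regions stay within the called range.

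SLC7A14 encodes a member of the SLC7 family of amino acid transporters that resides in lysosomes. Its region of largest fall, 1759 bp at chr3:170223694-170225452, lies in an intron, 78412 bp inside the gene from its start. The region also lies within the antisense transcript SLC7A14-AS1 and within ENSG00000285218, an annotated coding gene on the plus strand, outside the exons of both. Percentiles were 89.0, 93.8 and 95.0 with control siRNA, and not called, 5.42 and not called with NRF2 siRNA. All 3 control siRNA libraries placed it among their stronger peaks, and the only remaining peak, in NRF2 siRNA replicate 2, covered 316 bp at a −log10 q-value of 1.72. Fold enrichment was 7.79, 9.91 and 12.9 with control siRNA and 2.64 in that library. The score change was -2.78 (SE 0.301), and -2.19, -2.63 and -3.53 in pairs 1 to 3.

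The SLC7A14 promoter carried no peak in any library. The nearest region to the gene start was 13078 bp away, in an intron, and was called only in NRF2 siRNA replicate 3, at a percentile of 14.7. Apart from the region of largest fall, acetylation inside the gene was weak throughout. An intronic region 34726 bp from it (chr3:170186534-170188967) had percentiles of not called, 13.3 and 32.0 with control siRNA and not called, not called and 0.588 with NRF2 siRNA. Its score change was -0.42 (SE 0.263, 95% interval -1.02 to 0.17; adjusted p = 0.387 by limma). The change was 0.25 in pair 1, where neither library called it and the scores depend only on how many regions each library called, and -0.68 and -0.84 in pairs 2 and 3. With pairs 2 and 3 alone it was called lower (change -0.78, adjusted p = 0.0433), as were 6.49% of the 37627 regions tested in that fit. Between these lay 2 shorter intronic regions called in control siRNA libraries only, at 11490 and 16328 bp from the region of largest fall and at percentiles of 15.5 to 22.0, too few calls to be tested.

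The strongest neighbour of this locus was the promoter region of SKIL, which encodes SnoN, a repressor of SMAD signalling, 144626 bp away. Its percentiles were 93.4, 95.6 and 97.9 with control siRNA and 99.1, 96.4 and 97.9 with NRF2 siRNA. The score change was 0.88, 0.10 and 0.03 in pairs 1 to 3, with a mean of 0.34 (SE 0.242, 95% interval -0.21 to 0.88; adjusted p = 0.463 by limma), which did not pass the test. The change was 0.13 without NRF2 siRNA replicate 1 and 0.06 with pairs 2 and 3 only.

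PPP1CB encodes the beta catalytic subunit of protein phosphatase 1, and SPDYA encodes Speedy A, an activator of the cyclin-dependent kinases CDK1 and CDK2. The region of largest fall here, 2793 bp at chr2:29024514-29027306, runs across the end of PPP1CB: 1293 bp lie in the untranslated part of its last exon and the rest beyond the gene. All of it lies in an intron of SPDYA, 6379 bp from the nearest SPDYA coding start. Percentiles were 93.1, 90.7 and 89.1 with control siRNA, and no NRF2 siRNA library called the region. It was the only region of the 22 called in every control siRNA and no NRF2 siRNA library, a pattern that 2.27% of all merged regions had. None of the 22 showed the reverse pattern, which 0.83% of merged regions had. Fold enrichment with control siRNA was 9.10, 8.70 and 9.96, with −log10 q-values of 24.6 to 42.9. The score change was -2.82 (SE 0.309), and -2.43, -2.94 and -3.10 in pairs 1 to 3, where the score of an uncalled region depends on how many regions its library called.

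The PPP1CB promoter, 47135 bp from that region, held similar ranks within each pair. All 10 annotated PPP1CB starts lay in a region of 4075 bp (chr2:28973304-28977378) with percentiles of 68.3, 82.2 and 83.9 with control siRNA and 70.8, 81.1 and 83.4 with NRF2 siRNA. Within a pair the libraries differed by a few percentile points, less than the range across each group. The score change was 0.06 (SE 0.192, 95% interval -0.37 to 0.50; adjusted p = 0.890 by limma), and 0.20, -0.05 and 0.03 in pairs 1 to 3. The SPDYA coding starts, by contrast, lay in no region. The nearest region ended 170 bp from a start and was called only in the replicate 3 libraries, at a percentile of 50.3 with control siRNA and 7.41 with NRF2 siRNA, too few calls to be tested.

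Of the other neighbours of the PPP1CB-SPDYA locus, the lowest changes were seen in a pair of regions on the SPDYA side. The promoter region of TRMT61B, which encodes a mitochondrial tRNA methyltransferase, was 65383 bp away. Percentiles were 54.6, 58.8 and 59.5 with control siRNA and not called, 50.8 and 37.6 with NRF2 siRNA, so the groups did not overlap. Its change was -0.65 (SE 0.259, 95% interval -1.23 to -0.06), the neighbour with an unadjusted p under 0.05, and it did not pass after adjustment (adjusted p = 0.178 by limma). An intergenic region 145939 bp away, beyond WDR43, had percentiles of 72.1, 61.1 and 64.9 with control siRNA and not called, 51.2 and 58.9 with NRF2 siRNA. Here too the groups did not overlap, and the change was -0.65 (SE 0.296, 95% interval -1.32 to 0.02; adjusted p = 0.234). These were the only 2 of 11 tested neighbours with all NRF2 siRNA libraries below all control siRNA libraries, an arrangement found in 12.8% of all regions tested. The opposite arrangement was found in 0 of the 11 and in 7.39% of all regions. In both, the largest pair change was that of pair 1, at -1.20 and -1.60, where NRF2 siRNA replicate 1, the shortest list, had no call. Without that library the changes were -0.46 and -0.36, and with pairs 2 and 3 only they were -0.33 and -0.16.

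The largest rise among the neighbours was in a region of 713 bp inside a long noncoding RNA gene (chr2:28884466-28885178), 139335 bp from the region of largest fall. Percentiles were 20.3, not called and 1.66 with control siRNA and not called, 52.0 and 50.4 with NRF2 siRNA. It was higher in pairs 2 and 3 and lower in pair 1, and its change of 0.92 (SE 0.413, 95% interval -0.01 to 1.85; adjusted p = 0.227 by limma) did not pass. With pairs 2 and 3 alone it was called higher (change 1.48, adjusted p = 0.0140), as were 5.63% of regions in that fit. The promoter region of WDR43, which encodes a protein of ribosome biogenesis, had percentiles of 69.4, 70.9 and 83.3 with control siRNA and 85.2, 74.8 and 76.1 with NRF2 siRNA. These groups overlapped, and the change was 0.16 (SE 0.243; adjusted p = 0.752).

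**Figure D3:**
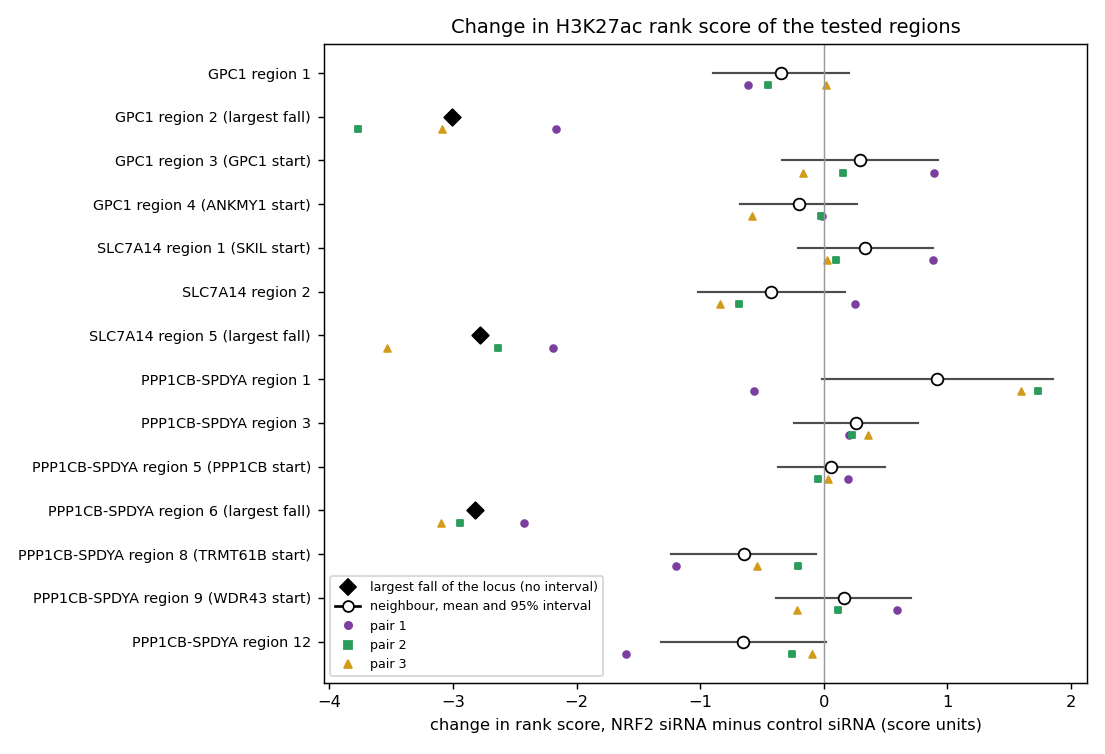
Change in rank score, NRF2 siRNA minus control siRNA (horizontal axis, score units), for the 14 tested regions; open circles with lines are neighbours with their 95% intervals, black diamonds the regions of largest fall without an interval, and small symbols the 3 pairs. The diamonds lie at -2.78 or below, and the neighbours between -0.65 and 0.92.

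Over the 3 loci, the scores of the 11 tested neighbours changed by a median of 0.06, beside 0.02 for all regions tested, with 5 lower and 6 higher. The median was 0.20, -0.02 and -0.09 in pairs 1 to 3. For 3 neighbours the score was lower in all 3 pairs and for 2 it was higher, beside 22.9% and 28.6% of all regions. The 6 neighbours with a coding start had a median of 0.11 (all such regions, -0.06) and the 5 without a start -0.35 (all such regions, 0.07), each with no member called. All 14 tested regions owe their place to the filter on calls, and the 8 regions that missed it were called in 1 library (6 regions) or 2 libraries (2 regions). Of the 22 regions, 7 were called in all 6 libraries, beside 34.2% of all merged regions, and 6, the PPP1CB end region among them, were called only in control siRNA and 2 only in NRF2 siRNA libraries, beside 18.9% and 13.1% of all merged regions. The libraries differed in how many of the 22 they called, with 14, 14 and 19 in control siRNA replicates 1 to 3 and 8, 12 and 14 in NRF2 siRNA replicates 1 to 3, the longest list of each group calling the most.

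Of the first regions beyond the 3 windows, on both sides, 4 of 6 could be tested, and their changes ran from -0.77 to 0.14, with adjusted p-values of 0.158 to 0.773 by limma. The falls that chose the loci were close to others in size. In the same ranking, the fifth largest fall (SLC7A14) and the sixth, outside the choice and nearest to TACR1, were both -2.78. Those ranked 2 and 4, nearest to ADH7 and TOR3A, were -2.86 and -2.81.

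The regions of largest fall also differed in place and base composition. The GPC1 region, at 59.7% G and C, was intergenic and the longest, whereas the SLC7A14 and PPP1CB regions had 38.4% and 37.4% and lay within annotated genes. A fall of this size needs a high rank with control siRNA, so the high control ranks of the 3 regions come with the choice of loci. In each locus the region of largest fall was the one without a coding start that ranked highest with control siRNA, with mean percentiles of 97.7 ± 0.748, 92.6 ± 3.13 and 91.0 ± 2.02 (SD, n = 3) for GPC1, SLC7A14 and PPP1CB-SPDYA.

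Matches were searched on both strands to the ARE core TGACNNNGC, the AP-1 site TGANTCA and the C/EBP site TTGCNNAA, and, added after the first matches were seen, to the G form of the core, TGAGNNNGC, and a joint spelling. ARE cores were found in the neighbours as well. The GPC1 upstream region held 5, a number reached by 9.50% of equally long windows centred on merged regions, while the SLC7A14 and PPP1CB regions held 1 each, and 50.2% and 64.4% of windows of their lengths held 1 or more. Per kb, ARE cores numbered 0.644 in the 3 regions of largest fall, 0.518 in the 11 tested neighbours, 1.14 in the 8 untested neighbours and 0.396 in all merged regions. The G form numbered 0.368, 0.518, 0.381 and 0.499 per kb in the same order. The GPC1 and PPP1CB start regions, which were not called lower, held 3 cores each. Of windows of their lengths, 17.1% and 19.9% held 3 or more. The ARE cores of the SLC7A14 and PPP1CB regions are shown with 10 bases on either side in capitals and lower case as above. Each is the only core of its region, and the second lies apart from the AP-1 site. The base before the core is G in the first and C in the second. The second therefore does not match the longer form of the core, which has A or G before TGAC.
SLC7A14 intronic region, chr3:170224511-170224539, minus strand: aggctgcaagTGACTCAGCagaattagag
PPP1CB end region, chr2:29026804-29026832, plus strand: gcatggtttcTGACAGTGCtgctgtttac

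The joint spelling TGANTCAGC, which contains an AP-1 site and overlaps the ARE core where N is C, is given as a description, since it was chosen from the matches. It occurred 1 time in each region of largest fall, at -97, -48 and 239 bp from the centre in the order GPC1, SLC7A14 and PPP1CB. Of windows of the same lengths, 26.0%, 13.1% and 16.4% held it. It was found in 0 of the 11 tested neighbours, although 8 of them held AP-1 sites and 9 held ARE cores, and in 1 of the 8 untested neighbours, an intronic SLC7A14 region called in control siRNA replicates 2 and 3 only. Over all tested regions, 64.9% of those called lower, 17.2% of those called higher and 20.2% in all held it. C/EBP sites were found in 2 of the 3 regions of largest fall and 6 of the 11 tested neighbours, beside 69.6% of all tested regions. Per kb they numbered 0.276 in the regions of largest fall, 0.378 in the tested neighbours and 0.577 in all merged regions. AP-1 sites numbered 0.460, 0.438 and 0.472 per kb in the same order. A match gives only the letters in the reference sequence, and binding of any factor was not measured in these files.

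**Figure D4:**
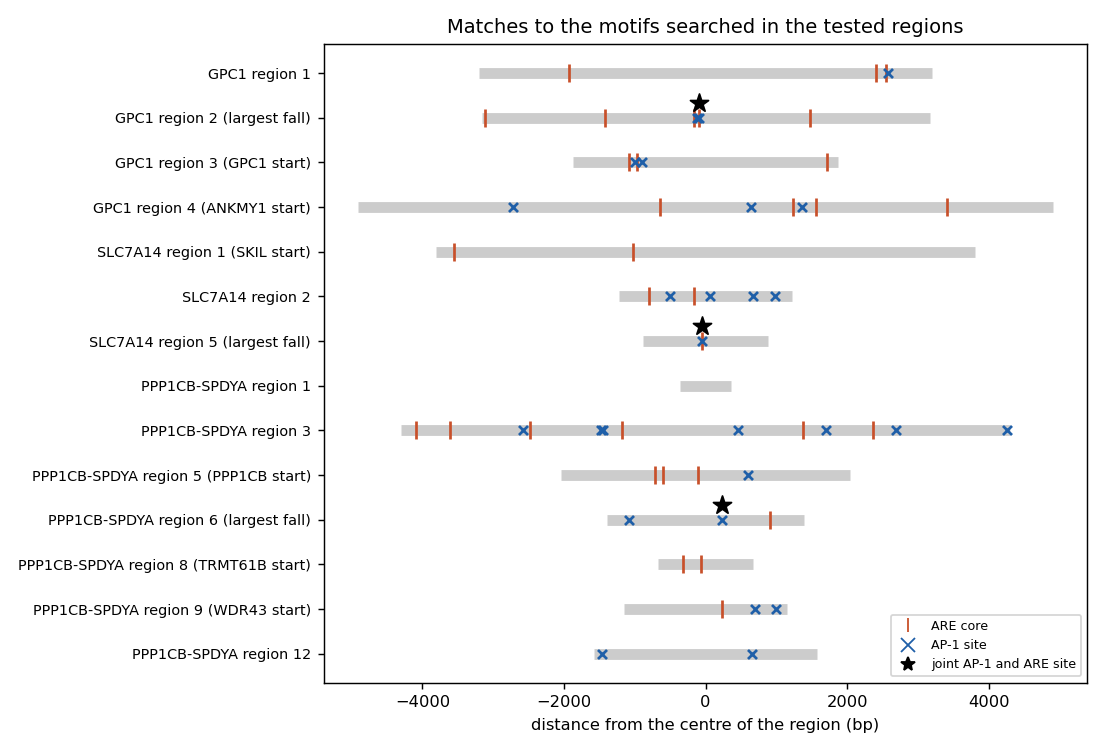
Matches to the motifs in the 14 tested regions, as distance in bp from the centre of each region (horizontal axis); grey bars give the length of a region, red ticks ARE cores, blue crosses AP-1 sites and black stars the joint spelling TGANTCAGC. Stars appear in the 3 regions of largest fall, within 239 bp of their centres, and in no tested neighbour.

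Acetylation at promoters of related genes was compared in the same fit. Of 36 glypican, SLC7, protein phosphatase 1 and Speedy or CDK genes, 22 had a coding start in a merged region and 21 could be tested. The list includes the member genes, so the GPC1 and PPP1CB start regions described above are among the 21. None was called in either direction by limma with Benjamini-Hochberg adjustment, and at an unadjusted p under 0.05 there were 3 lower and 0 higher, beside 7.19% and 3.08% of all tested regions with a coding start. After adjustment 1.05% of those regions were called lower and 0.282% higher. Scores were lower for 14 and higher for 7, with a median of -0.12, and for all tested regions with a coding start 57.8% were lower, with a median of -0.06. The 12 protein phosphatase 1 genes tested had a median of -0.05, from -0.75 at PPP1R8, a nuclear inhibitor subunit (adjusted p = 0.110), to 0.40. PPP1CA and PPP1CC, which encode the other catalytic subunits, changed by 0.16 and -0.08 (adjusted p = 0.733 and 0.897). Of the 5 SLC7 genes tested 4 were lower, with the largest difference at SLC7A11, the cystine transporter subunit known as a target of NRF2 (change -0.74, SE 0.209, adjusted p = 0.0765). GPC6, the only other glypican with a start region, changed by -0.42 (adjusted p = 0.264), and CDK2 by -0.61 (adjusted p = 0.126).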

How the data were processed

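H3K27ac libraries of A549 cells were sequenced after ChIP (3 control siRNA, 3 NRF2 siRNA). Per the submitters' processing notes, the tools included Bowtie2 2.2.6, SAMtools and MACS2 2.1.0.20151222, with hg19. The authors called broad peaks per library and deposited, for each peak, its position, an integer score, the fold enrichment (a ratio over background) and −log10 values of its p-value and its q-value. Whether an input served as background is not given in the sources used here. The 2 input samples were not analysed here.

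Chromosome names and lengths were compared with GRCh37 (24 matched). Genes came from GENCODE on GRCh37. A region's highest fold enrichment was ranked within each library over regions called in at least 3 of 6 libraries (tied lowest rank if not called), turned into a normal score and compared with limma 3.58.1 in R 4.3.3 (threshold 0.05, Benjamini-Hochberg). The fit was also run on simulated scores drawn independently for each library. These held no tied lowest ranks for uncalled regions and no shared deviation of same-numbered libraries, so the simulation does not cover either feature. For means of percentiles, not called counted as 0. Same-numbered libraries deviated together (correlations 0.398, 0.199 and 0.363), and the titles give the numbers, so a fit with the replicate number as a block was an alternative. Members, gene lists and motifs were chosen with earlier results of these data known. Regions named are those of largest fall, those with coding starts, the strongest without one, and the neighbours of largest fall and rise in each locus.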

Additional observations from a re-analysis of the deposited data

How the results depend on the processing

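With the replicate number as a block, 0 neighbours were called lower and 0 higher, the median change of the neighbours remained 0.06, and no call among named regions changed. Leaving out each library in turn gave 0 called neighbours throughout, and a median from -0.06 to 0.15. With pairs 2 and 3 only, 1 neighbour was called lower (the weak SLC7A14 intronic region, -0.78) and 1 higher (the noncoding RNA region of the PPP1CB-SPDYA locus, 1.48), and the median over 13 neighbours was -0.16. In that fit the small changes at the GPC1, PPP1CB and WDR43 promoters took the other sign (-0.0012, -0.0058 and -0.050). With a library left out, the PPP1CB promoter change ran from -0.0082 (without control siRNA replicate 1) to 0.12, and that of WDR43 from -0.061 (without NRF2 siRNA replicate 1) to 0.30. These libraries make up replicate 1, whose lower depth, technical difference and siRNA cannot be told apart, and the cause was not tested. With every merged region tested, the median over 19 neighbours was -0.14, fewer calls being needed. The PPP1CB end region changed by -2.44 in that fit and by -2.42 with peaks of a −log10 q-value of at least 5. Regions called in every control siRNA and no NRF2 siRNA library numbered 2 at equal list lengths, 3 at that q-value limit, and 1 to 2 when a library was left out. They numbered 2 without control siRNA replicate 1 and 2 without NRF2 siRNA replicate 2. Over all alternatives that gave a value, the fall was -3.47 to -2.51 at GPC1, -3.13 to -2.35 at SLC7A14 and -3.15 to -2.42 at PPP1CB. These ranges rest on 13, 13 and 10 alternatives and describe regions chosen for their fall. The PPP1CB end region passed the filter only through its control siRNA calls. It dropped out of the fit when any control siRNA library was left out, so those fits give no value for it. The lists hold no counts, so precision rests on 3 libraries a group. The intervals given span the changes compatible with these values and are not adjusted for the number of regions tested.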
